A study of Mus musculus with 18 samples.

Results

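The response of β-arrestin 1 -/- mouse lung to chronic hypoxia was measured in 6 libraries, 3 from hypoxia and 3 from normoxia, out of 18 libraries in the study. The 6 libraries were taken by their titles, which give genotype, exposure and a replicate number of 0, 1 or 2. All were poly(A)-selected RNA from whole lung of male C57BL/6 mice of 12 to 16 weeks at collection, and both groups carry the same deletion of Arrb1, the gene of β-arrestin 1. The hypoxia group lived for 4 weeks at an air pressure equal to that of 18000 feet of altitude, where PAO2, the oxygen pressure given in the labels, was about 70 mmHg. The normoxia group lived for the same time at a PAO2 of about 150 mmHg. The other 12 libraries are wild type hypoxia, wild type normoxia, and hypoxia and normoxia libraries labelled β-arrestin 2 -/-, with 3 of each, and they serve here for comparison of the hypoxia response. Whether the 3 libraries of a group are 3 animals is not stated in the labels, so the spread behind the p-values is that between libraries and may be technical. No promoter-driven Cre or cell type is named for the deletion.

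β-Arrestins bind G protein-coupled receptors once these are activated and phosphorylated, end their coupling to G proteins and carry them to endocytosis and to other signalling proteins. Many receptors that set the tone of lung vessels, among them those of endothelin, angiotensin, prostacyclin and catecholamines, are of this class. Chronic hypoxia constricts and remodels the pulmonary arteries of mice, and is a standard way of producing pulmonary hypertension in rodents. Cells sense low oxygen through the hypoxia-inducible factors (HIF), whose proteins are stabilised when oxygen falls, and the lung endothelium carries much of the HIF-2α of the body.

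Arrb1 (chromosome 7 from 99535486 to 99606771, mm10, coordinates of the authors' table counted from 1) had 84.2, 88.7 and 89.4 CPM in β-arrestin 1 -/- hypoxia and 87.9, 118 and 108 CPM in β-arrestin 1 -/- normoxia, against 409, 399 and 302 CPM in wild type hypoxia and 479.7, 467 and 479 CPM in wild type normoxia. CPM here are estimated fragments scaled to library size with TMM factors. All 6 knockout libraries lay far below all wild type libraries, with fragments still counted to the gene, and the files hold no values per exon. Arrb1 did not pass the test between hypoxia and normoxia in the knockout (log2 change -0.26 ± 0.12, adjusted p = 0.278), and neither did Arrb2, the paralog, with 39.4, 37.8 and 72 CPM in hypoxia and 31.2, 35.9 and 33.2 CPM in normoxia (adjusted p = 0.136). In the libraries labelled β-arrestin 2 -/-, Arrb2 had 31, 37.8 and 34.7 CPM in hypoxia and 45.6, 38.6 and 36.3 CPM in normoxia, against 33.7, 40.1 and 43.3 CPM in wild type hypoxia and 31.9, 30.4 and 35.2 CPM in wild type normoxia. Their Arrb2 overlapped with wild type in hypoxia and was above all 3 wild-type libraries in normoxia, so they are named below by their label.

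Library totals were 16801610 to 22811862 estimated fragments in hypoxia and 21442404 to 23861200 in normoxia. Hypoxia replicate 2 had the lowest total, and it stood apart in several cell markers. Ager, a marker of alveolar type 1 cells, had 3346, 2731 and 5868 CPM in hypoxia and 2949.5, 3299.5 and 3294 CPM in normoxia, and the endothelial cadherin gene Cdh5 had 1951, 1734 and 1070.4 CPM in hypoxia and 1453, 1519 and 1725 CPM in normoxia. Cardiac muscle genes, which in the mouse come from the sleeve of heart muscle around the pulmonary veins, varied most within groups. The summed level of the 33 measured cardiac genes was 406.4, 3131 and 738 CPM in hypoxia and 2965, 2152 and 1036 CPM in normoxia, so the groups overlapped. Markers of lung were present in all 6 libraries, with 3015, 2626 and 3885 CPM of the surfactant gene Sftpb in hypoxia and 2741, 3052 and 2951 CPM in normoxia. The liver gene Alb was at 0.0617 to 0.523 CPM. The defining markers Sftpc of type 2 cells and Scgb1a1 of club cells were not used here.

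Of 15384 genes tested, 451 changed between hypoxia and normoxia in β-arrestin 1 -/- lung (2.93% at an adjusted p under 0.05 in edgeR's quasi-likelihood test). In hypoxia 277 were higher (1.80%) and 174 lower (1.13%). At least 2-fold changes were seen in 98 of the higher and 56 of the lower genes. The 3 hypoxia values lay wholly above or below the 3 normoxia values for 447 of the 451, against 3221 of all genes tested (20.9%). The authors' deposited table called 1113 of these genes, and 355 of the 451 (78.7%) were called there in the same direction.

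The number called rested on the normoxia libraries. It was 134, 148 and 196 without normoxia replicate 0, 1 and 2, and 491, 419 and 361 without hypoxia replicate 0, 1 and 2. When the 6 libraries were fitted on their own, with no share in the spread of the other groups, 47 genes were called, 27 higher and 20 lower. A core of 101 genes, 51 higher and 50 lower, was called with all libraries and without each of the 6 in turn. Genes of this core are called stable below, a word that covers leaving out single libraries and nothing else. With DESeq2 all 101 were called. DESeq2 made 841 calls on the same libraries and shared 450 of the 451 main calls, so this says nothing particular to the core. With the 6 libraries fitted alone, without the spread of the other 12, 36 of the 101 were called and 65 were not. In that smaller fit the adjusted p was 0.152 for Stab2, 0.141 for Slc22a5, 0.133 for Serpina3f and 0.112 for Cd34 and Txnip. It lay between 0.0524 and 0.082 for Gdf6, Wnt7a, Adamts9, Mvd, Cybrd1, Adora2a, Hey2, Dpysl5, Fzd2, Cpt1a, Abcb1a, Esr2, Serpina3g, Adrb3, Cdk19, Cd40, Lepr, Bmp3, Slc7a11 and Bmpr1b.

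**Figure D1:**
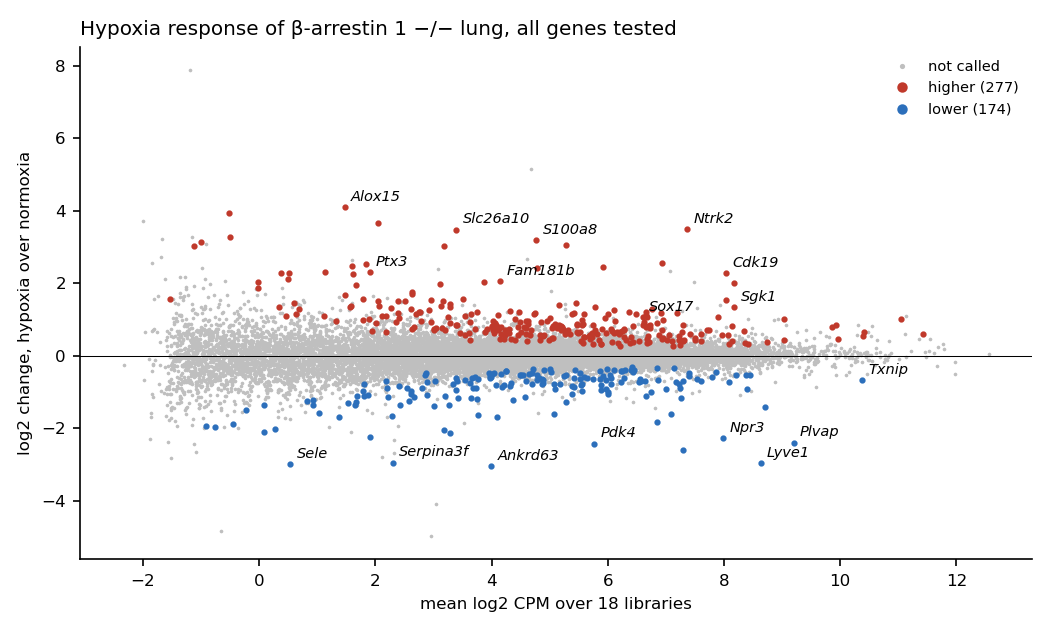
Log2 change of each of the 15384 genes tested (hypoxia over normoxia in β-arrestin 1 -/- lung, vertical axis) against its mean log2 CPM over the 18 libraries (horizontal axis), with the 277 genes called higher in red, the 174 called lower in blue and the rest in grey. Lyve1, Plvap and Npr3 stand out among the lower and Ntrk2 and Cdk19 among the higher abundant genes.

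Several abundant genes of the vessel lining fell. Plvap (chromosome 8 from 71497753 to 71511769) encodes the protein of the diaphragms that span endothelial fenestrae and caveolae. It had 110.3, 166 and 197 CPM in hypoxia, against 683, 863 and 935 CPM in normoxia. The highest hypoxia library was far below the lowest normoxia library, and the log2 change was -2.39 ± 0.24 (SE, adjusted p = 0.000142). Per length, Plvap averaged 77 ± 21.7 FPKM in hypoxia and 404 ± 63.5 FPKM in normoxia in the authors' values (SD, n = 3). Esm1, or endocan, is a proteoglycan of endothelial tip cells. Its levels were 11.9, 12.9 and 18.1 CPM in hypoxia, against 36.2, 44.5 and 48.7 CPM in normoxia, without overlap (log2 change -1.6 ± 0.25, adjusted p = 0.00344). Both were stable.

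Other genes of the same list of 24 capillary and pan-endothelial genes rose, 4 in all, while 2 fell. Cd34, a sialomucin of the endothelial surface, had 457, 484 and 352 CPM in hypoxia, against 246, 265 and 286 CPM in normoxia (log2 change 0.70 ± 0.12, adjusted p = 0.00766), and was stable. Emcn, the sialomucin of capillaries and veins, had 291, 187 and 184 CPM in hypoxia, against 102, 89.6 and 103 CPM in normoxia, with hypoxia replicate 0 the highest (log2 change 1.17 ± 0.22, adjusted p = 0.00946; 0.0537 without normoxia replicate 1). Aplnr, the apelin receptor of capillary endothelium, had 108, 96.8 and 146 CPM in hypoxia, against 48.9, 39.9 and 62 CPM in normoxia (log2 change 1.22 ± 0.26). It was not called without hypoxia replicate 2 (adjusted p = 0.0566) or normoxia replicate 0 or 1 (0.0816 and 0.098). Sirpa, also of myeloid cells, rose by 0.49 on the log2 scale and lost its call without hypoxia replicate 2 or any normoxia replicate (adjusted p of 0.0635 to 0.162). The summed level of the list overlapped, at 12240 to 12700 CPM in hypoxia and 11070 to 12500 CPM in normoxia. The general endothelial genes did not pass the test, with Pecam1 at a log2 change of 0.12 ± 0.11 and Kdr, the main VEGF receptor, at 0.02 ± 0.22.

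Of 19 arterial genes, 3 rose and none fell. Sox17 (chromosome 1 from 4490928 to 4496413) is a transcription factor of arterial endothelium, and loss-of-function variants of the human gene occur in pulmonary arterial hypertension. It had 174, 149 and 147 CPM in hypoxia, against 78.8, 71 and 73.8 CPM in normoxia, and every hypoxia library was close to double the normoxia level (log2 change 1.07 ± 0.12, adjusted p = 0.000234). Gja4, the gap junction protein connexin 37, had 171, 151 and 179 CPM in hypoxia, against 73.7, 64.5 and 68 CPM in normoxia (log2 change 1.28 ± 0.21, adjusted p = 0.00499). Hey2, a repressor induced by Notch in arteries, had 20.6, 14.9 and 12.7 CPM in hypoxia, against 6.48, 5.62 and 6.84 CPM in normoxia (log2 change 1.35 ± 0.21, adjusted p = 0.00344). All of these were stable and did not overlap between groups. Gja5, the other arterial connexin, had 80.7, 108 and 104 CPM in hypoxia and 91.8, 64.9 and 83.2 CPM in normoxia and was not called (adjusted p = 0.324). The median log2 change of the list was 0.26 (0.16 without normoxia replicate 1), against 0.01 over all genes tested.

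Venous and activated endothelial genes went the other way, with 4 of 13 lower and none higher, and a median log2 change of -0.78. That median was -0.38 without hypoxia replicate 2 and -0.47 without normoxia replicate 1, while the count of genes called lower was 4 without each library in turn. Slc6a2 is the noradrenaline transporter, which in lung clears noradrenaline through the endothelium. It had 50.3, 28 and 41.8 CPM in hypoxia, against 109.8, 135 and 122 CPM in normoxia (log2 change -1.61 ± 0.29, adjusted p = 0.00749). Vcam1, the adhesion molecule that binds leukocyte integrins, had 76.4, 64.7 and 58.6 CPM in hypoxia, against 133, 138 and 159 CPM in normoxia (log2 change -1.11 ± 0.13, adjusted p = 0.000487). Prss23, a serine protease, had 90.6, 77.3 and 65.7 CPM in hypoxia, against 162, 200.1 and 163 CPM in normoxia (log2 change -1.17 ± 0.14). Sele, or E-selectin, the adhesion molecule of inflamed venules, was low throughout, at 0.507, 0.784 and 0.308 CPM in hypoxia, against 4.95, 3.55 and 4.63 CPM in normoxia (log2 change -2.99 ± 0.39, adjusted p = 0.000979). These 4 were called without each library in turn, and none overlapped. Cx3cl1, the membrane-bound chemokine of endothelium, likewise fell, with 37.3, 45.2 and 39.2 CPM in hypoxia, against 85.3, 81.5 and 85.7 CPM in normoxia (log2 change -1.05 ± 0.12, adjusted p = 0.000384), and was the 1 gene called among 31 chemokine ligands. In whole lung, fewer cells of a type and less RNA per cell cannot be told apart.

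Lyve1 (chromosome 7 from 110850607 to 110862953), the hyaluronan receptor of lymphatic vessels and of a class of interstitial macrophages, had the smallest adjusted p of all genes. Its levels were 81.1, 78.5 and 69.8 CPM in hypoxia, against 505, 633 and 646 CPM in normoxia, a level of 12.9% of normoxia (log2 change -2.96 ± 0.18, adjusted p = 2.84e-07). The 3 hypoxia libraries were within a narrow band, far under the lowest normoxia library. With all libraries in the fit, no other gene of the 9 in the lymphatic list was called lower and 2 were called higher. Without hypoxia replicate 1, 2 genes of the list were called lower and 1 higher. Reln, or reelin, rose by 1.01 ± 0.20 on the log2 scale, with 23.9, 19.1 and 15.8 CPM in hypoxia, against 10.1, 9.03 and 9.99 CPM in normoxia, and was not called without normoxia replicate 1 (adjusted p = 0.0633). Mmrn1, a multimerin, rose by 0.85 ± 0.20, and lost its call without each of 5 libraries (adjusted p of 0.0515 to 0.126, still called without hypoxia replicate 2). Of 32 genes of monocytes and interstitial macrophages, Lyve1 was the 1 called gene.

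**Figure D2:**
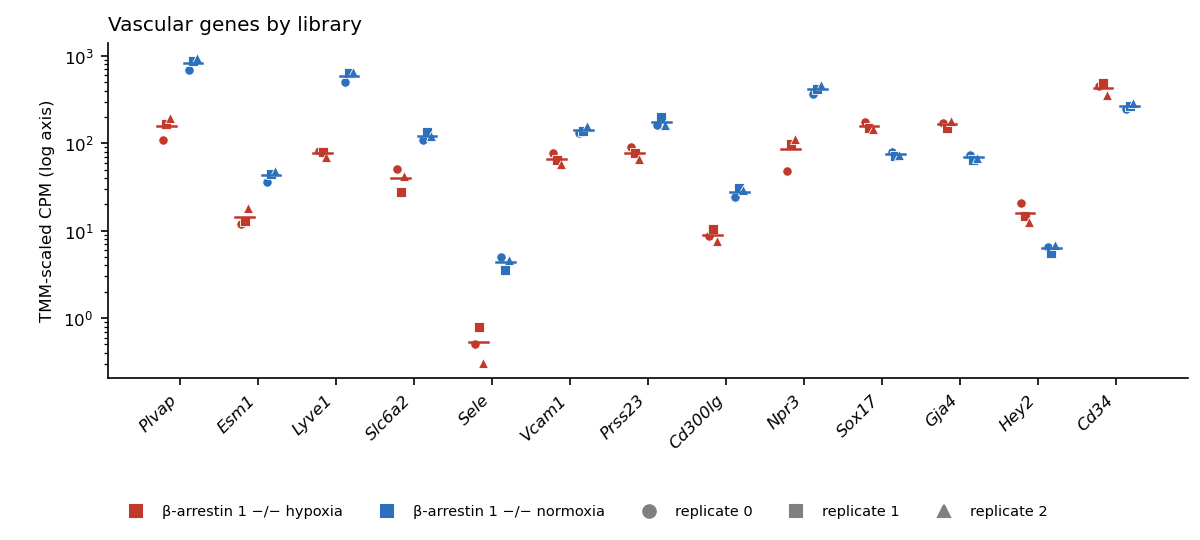
TMM-scaled CPM (log axis) of 13 vascular genes in each β-arrestin 1 -/- library, with hypoxia in red on the left and normoxia in blue on the right of each gene, 1 symbol shape per replicate number and a bar at the mean of 3 libraries. Plvap, Esm1, Lyve1, Slc6a2, Sele, Vcam1, Prss23, Cd300lg and Npr3 are lower in hypoxia and Sox17, Gja4, Hey2 and Cd34 higher. Groups do not overlap for any of the 13, which were taken from the called genes. Of these, 447 of 451 do not overlap, against 20.9% of all genes tested.

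Some genes of receptors that couple to G proteins and of their regulators were called, and whether they changed as a class was not tested. Called were 1 of 8 adrenergic receptor genes and 2 of 17 regulators of G protein signalling, against 2.93% of all genes tested. Adora2a, a receptor of adenosine that relaxes vessels, had 14, 14.2 and 16.5 CPM in hypoxia, against 7.47, 6.03 and 7.78 CPM in normoxia (log2 change 1.07 ± 0.18, adjusted p = 0.00672). Adrb3, the β3-adrenergic receptor, had 15.8, 19 and 23.9 CPM in hypoxia, against 7.72, 9.86 and 9.0 CPM in normoxia (log2 change 1.14 ± 0.16, adjusted p = 0.00165), the 1 called of 8 adrenergic receptor genes. Rgs2, which shortens the signal of Gq-coupled receptors in vessels, had 136, 127 and 159 CPM in hypoxia, against 67.4, 71.7 and 55.7 CPM in normoxia (log2 change 1.11 ± 0.15, adjusted p = 0.00118). All 3 receptors and regulators were stable, with no overlap between groups. Rgs9 fell by 0.80 ± 0.20 and lost its call without hypoxia replicate 0 or 1 or normoxia replicate 1 or 2 (adjusted p of 0.092 to 0.199).

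Among vasodilator pathways, Ptgir, the prostacyclin receptor, had 10.5, 10.7 and 9.93 CPM in hypoxia, against 5.82, 5.67 and 6.66 CPM in normoxia (log2 change 0.78 ± 0.17, adjusted p = 0.023; 0.0986 and 0.098 without normoxia replicate 0 or 1). Ramp3, the partner that turns the calcitonin receptor-like receptor into an adrenomedullin receptor, rose by 0.96 ± 0.19 and was not called without normoxia replicate 0 or 2 (adjusted p = 0.081 and 0.0529). Npr3 (chromosome 15 from 11839897 to 11905674), the clearance receptor that removes natriuretic peptides, had 48.5, 99 and 113 CPM in hypoxia, against 369, 417 and 464 CPM in normoxia. Hypoxia was thus at 20.8% of normoxia (log2 change -2.27 ± 0.43, adjusted p = 0.0103), and the gene was stable. Within the 20 genes of nitric oxide and cyclic GMP signalling, Npr3 fell while Nos2, the inducible synthase, and Pde2a, a cyclic GMP-stimulated phosphodiesterase, rose. Nos2 had 19.5, 17.4 and 7.52 CPM in hypoxia, against 5.7, 4.93 and 4.9 CPM in normoxia (adjusted p = 0.0299), and lost its call without each of 5 libraries (adjusted p of 0.0651 to 0.115; called without hypoxia replicate 2). Pde2a rose by 0.86 ± 0.17 and was not called without normoxia replicate 1 or 2 (adjusted p = 0.0861 and 0.0722). The endothelial synthase Nos3 had 56.7, 60.9 and 37.9 CPM in hypoxia and 39.4, 38.3 and 41.5 CPM in normoxia, with overlap, and was not called.

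Of vasoconstrictor genes, none of 7 in the endothelin pathway was called. With 2.93% of all genes tested called, a count of none in so short a list says little. Edn1, the ligand, had 119.8, 85.5 and 80.9 CPM in hypoxia and 52.5, 46.2 and 82.6 CPM in normoxia, overlapping because of normoxia replicate 2 (log2 change 0.66 ± 0.27, adjusted p = 0.21). Maoa, which breaks down serotonin and noradrenaline, rose by 0.61 ± 0.12 and was not called without normoxia replicate 1 or 2 (adjusted p = 0.0806 and 0.063). Kcnk2, the mechanosensitive potassium channel TREK-1, had 31.5, 33.5 and 33.5 CPM in hypoxia, against 61.9, 55.3 and 56.9 CPM in normoxia (log2 change -0.82 ± 0.09, adjusted p = 0.000194). It was stable, while Kcnc4 (log2 change 2.28 ± 0.51), Kcnk1 (-0.79 ± 0.19) and Kcnj15 (-0.69 ± 0.17), the other channel genes called among 28, each lost their call without at least 4 libraries (highest adjusted p 0.108, 0.164 and 0.172). Of 12 genes of arrestins, receptor kinases and arrestin-domain proteins, Txnip, an α-arrestin that blocks glucose uptake, was called. It had 1153, 1027 and 881 CPM in hypoxia, against 1755, 1545 and 1562 CPM in normoxia (log2 change -0.67 ± 0.12, adjusted p = 0.00749), and was stable.

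Some members of growth factor pathways of the vessel wall were called. In the BMP and TGF-β pathway 5 of 47 genes rose and 1 fell, with a median of -0.02. Bmp3, an atypical BMP ligand, had 57.7, 65.8 and 55.7 CPM in hypoxia, against 36.5, 38 and 41.3 CPM in normoxia (log2 change 0.63 ± 0.09, adjusted p = 0.00154). Bmpr1b, a type I BMP receptor, had 7.7, 10.9 and 6.6 CPM in hypoxia, against 20.2, 18.2 and 18 CPM in normoxia (log2 change -1.16 ± 0.22, adjusted p = 0.00961). Both were stable. Gdf6, a further BMP family ligand outside the list's count, had 7.1, 8.02 and 4.56 CPM in hypoxia, against 0.743, 1.57 and 1.26 CPM in normoxia (log2 change 2.47 ± 0.44, adjusted p = 0.00749), and was stable. Tgfb1 rose by 0.47 ± 0.09 and was not called without normoxia replicate 0 or 1 (adjusted p = 0.0809 and 0.0521).

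The BMP targets Id1 and Id3, inhibitors of DNA binding, rested on 1 library in size. Id1 had 201, 159.8 and 322 CPM in hypoxia, against 135, 119 and 123 CPM in normoxia, and Id3 had 390.3, 302 and 572 CPM in hypoxia, against 230.2, 244 and 240.4 CPM in normoxia. Hypoxia replicate 2 was the highest of both. Their log2 changes of 0.85 ± 0.18 and 0.82 ± 0.18 were 0.52 and 0.54 without it, and both lost their calls without any normoxia replicate (adjusted p of 0.0649 to 0.112). Id3 was also not called without hypoxia replicate 2 (adjusted p = 0.0703). Bmp2, the ligand, rose by 0.77 ± 0.17 and lost its call without hypoxia replicate 2 or any normoxia replicate (adjusted p of 0.0566 to 0.0978). Bmpr2, the receptor mutated in heritable pulmonary arterial hypertension, had 214, 151 and 64.7 CPM in hypoxia and 129, 84 and 141 CPM in normoxia, a wide overlap.

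In the Wnt list 3 of 37 genes rose and none fell. Wnt7a, a ligand of alveolar epithelium, had 27.6, 29.1 and 31.7 CPM in hypoxia, against 9.99, 12.9 and 15 CPM in normoxia (log2 change 1.22 ± 0.21, adjusted p = 0.00578). Fzd2, a Frizzled receptor, had 58.8, 59.5 and 63.8 CPM in hypoxia, against 26.8, 35.7 and 36.5 CPM in normoxia (log2 change 0.88 ± 0.16, adjusted p = 0.00749). Neither overlapped, and both were stable. Fzd6 rose by 0.74 ± 0.16 but kept its call without hypoxia replicate 2 only among the 6 (adjusted p of 0.052 to 0.0799 without the others). Of 17 Notch genes Hey2 rose and Dll1, a ligand, fell by 0.77 ± 0.15, a call lost without normoxia replicate 0 or 2 (adjusted p = 0.0728 and 0.0529).

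None of the 10 genes of HIF subunits and oxygen sensors was called, which says little with 2.93% of all genes tested called. Hif1a had 94.2, 87 and 52.3 CPM in hypoxia and 75.8, 68.7 and 74.3 CPM in normoxia, and Epas1, the gene of HIF-2α, had 3792, 3375 and 3708 CPM in hypoxia and 4033, 3949 and 4165 CPM in normoxia (adjusted p = 0.808 and 0.562). Of 33 genes known as HIF targets, 2 were higher and 4 lower, and their median log2 change was 0.08, and -0.03 without hypoxia replicate 0. Tfrc, the transferrin receptor through which cells take up iron, had 125, 138 and 123 CPM in hypoxia, against 73.2, 64.2 and 66.2 CPM in normoxia (log2 change 0.93 ± 0.15, adjusted p = 0.00514), and was stable. Pgf, placental growth factor, rose by 0.84 ± 0.17 and was not called without any normoxia replicate (adjusted p of 0.0541 to 0.0597). The classical targets Vegfa, Slc2a1, the glucose transporter, and Car9, a carbonic anhydrase, did not pass the test, at log2 changes of -0.17 ± 0.13, 0.06 ± 0.15 and -0.89 ± 0.29.

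Of the 4 lower HIF targets, 3 act in lipid and glucose handling. Angptl4, an inhibitor of lipoprotein lipase, had 74.7, 18.9 and 54.5 CPM in hypoxia, against 174, 189.6 and 165 CPM in normoxia, with hypoxia replicate 1 the lowest (log2 change -1.84 ± 0.37, adjusted p = 0.0147; 0.051 and 0.0566 without normoxia replicate 0 or 1). Pfkfb3, which makes the activator of glycolysis fructose 2,6-bisphosphate, fell by 0.91 ± 0.18 and was not called without normoxia replicate 0 or 1 (adjusted p = 0.051 and 0.0664). Hilpda, an inhibitor of triglyceride breakdown on lipid droplets, had 62.3, 68.8 and 138 CPM in hypoxia, against 165, 176 and 195 CPM in normoxia. Hypoxia replicate 2 was near the normoxia libraries, and the gene was called without it (log2 change -1.44, adjusted p = 0.00133). Without each of the other 5 it was not called (adjusted p of 0.0884 to 0.138). Stc1, the glycoprotein hormone stanniocalcin, fell by 1.1 ± 0.25 and was not called without hypoxia replicate 0 or 2 or any normoxia replicate (adjusted p of 0.055 to 0.0964). In iron handling, Tfrc rose while Cybrd1, a ferric reductase, had 11, 11.8 and 11.7 CPM in hypoxia, against 19.6, 19.9 and 20.2 CPM in normoxia (log2 change -0.79 ± 0.14, adjusted p = 0.00749), and 21 of the 23 iron genes did not pass the test.

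Of 25 genes of cholesterol synthesis, 7 rose (28%) and none fell, with a median log2 change of 0.48. Cholesterol is made from acetyl-CoA through mevalonate, and the genes of the pathway share control by SREBP-2, which binds sterol regulatory elements together with NF-Y, a factor that binds CCAAT boxes. For 5 of the 7 called genes a promoter window of 300 bases, 250 before and 50 after the start, was found in RefSeq (GRCm38.p6). Windows of 3 of them follow, chosen as an early, a middle and a late enzyme of the pathway, with each match to CCAAT or its reverse complement ATTGG and, in Hmgcs1, the match to the sterol element TCACNCCAC (either strand) in capitals. Hmgcs1, which makes HMG-CoA, lies on the plus strand at chr13:119690101-119690400, Mvd, which makes isopentenyl diphosphate, on the minus strand at chr8:122443373-122443672, and Msmo1, a sterol C4-methyl oxidase named Sc4mol in the files, on the minus strand at chr8:64733529-64733828.
Hmgcs1: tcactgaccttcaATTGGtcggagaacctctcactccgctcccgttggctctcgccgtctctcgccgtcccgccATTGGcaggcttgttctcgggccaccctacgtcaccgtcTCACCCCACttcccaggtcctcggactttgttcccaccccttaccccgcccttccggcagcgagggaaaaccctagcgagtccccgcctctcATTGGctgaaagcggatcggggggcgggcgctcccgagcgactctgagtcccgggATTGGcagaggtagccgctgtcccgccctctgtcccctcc
Mvd: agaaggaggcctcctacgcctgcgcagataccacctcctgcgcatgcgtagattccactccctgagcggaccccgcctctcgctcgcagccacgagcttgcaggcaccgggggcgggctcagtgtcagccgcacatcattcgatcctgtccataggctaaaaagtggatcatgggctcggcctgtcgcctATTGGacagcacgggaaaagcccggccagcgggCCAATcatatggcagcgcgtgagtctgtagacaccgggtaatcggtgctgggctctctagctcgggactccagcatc
Msmo1: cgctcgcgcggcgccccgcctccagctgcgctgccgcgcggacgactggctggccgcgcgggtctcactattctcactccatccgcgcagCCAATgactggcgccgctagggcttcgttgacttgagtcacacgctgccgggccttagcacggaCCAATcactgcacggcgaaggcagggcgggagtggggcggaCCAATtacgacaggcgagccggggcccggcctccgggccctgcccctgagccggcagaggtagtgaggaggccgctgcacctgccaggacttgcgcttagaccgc
CCAAT was found in a window of 5 of these 5 called genes, and in a window of 17 of the 18 list genes with one, against 41.1% of all 27025 genes in the table. Some genes have several windows: counted by window, 17 of 23 windows of the list genes held it (73.9%), against 37.4% of all 32851 windows. TCACNCCAC was found in 1 of the 18, Hmgcs1, against 1.44% of all genes. Counted by window, it was in 1 of 23, against 1.24% of all windows. The motifs do not overlap in these windows. A match describes letters and is not a measured site.

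Of these genes, Mvd had 20.04, 22 and 28.6 CPM in hypoxia, against 10.9, 10.6 and 10.9 CPM in normoxia (log2 change 1.12 ± 0.18, adjusted p = 0.00499), and was stable. Fdps, the farnesyl diphosphate synthase, had 14.5, 14.8 and 26.5 CPM in hypoxia, against 8.38, 7.55 and 8.1 CPM in normoxia, with hypoxia replicate 2 the highest (log2 change 1.21 ± 0.24, adjusted p = 0.0135). Hmgcs1 had 161, 163 and 130.1 CPM in hypoxia, against 104, 104 and 96 CPM in normoxia (log2 change 0.58 ± 0.14, adjusted p = 0.0365). Groups did not overlap for any of the 3. Mvk, the mevalonate kinase, rose by 0.59 ± 0.14, Fdft1, the squalene synthase, by 0.56 ± 0.12, Dhcr7, the last reductase of the pathway, by 0.62 ± 0.15 and Sc4mol by 0.52 ± 0.13. The count of 7 was 1 without any normoxia replicate, 5 without hypoxia replicate 1 or 2, 8 without hypoxia replicate 0 and 0 when the 6 libraries were fitted alone, while the list's median stayed between 0.40 (without hypoxia replicate 1) and 0.50 (without normoxia replicate 2). Without any normoxia replicate the adjusted p was 0.0544 to 0.0751 for Fdps, 0.10 to 0.121 for Hmgcs1 and up to 0.129, 0.0936, 0.133 and 0.168 for Mvk, Fdft1, Dhcr7 and Sc4mol. Hmgcs1 was also not called without hypoxia replicate 0 or 1, Mvk and Fdft1 without hypoxia replicate 2, Dhcr7 without hypoxia replicate 1 and Sc4mol without hypoxia replicate 1 or 2 (adjusted p of 0.051 to 0.119). The summed level of the list did not overlap, at 1226 to 1373 CPM in hypoxia and 1031 to 1119 CPM in normoxia. In wild type 7 of the 25 were called higher as well, with a median of 0.47, and in the libraries labelled β-arrestin 2 -/- the median was 0.05. The difference of responses was called for none of the 25 against wild type and for 2 against the libraries labelled β-arrestin 2 -/-.

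In fatty acid synthesis, 2 of 20 genes rose and 1 fell. Srebf1, the transcription factor of this pathway, had 179.5, 181 and 160.5 CPM in hypoxia, against 134, 125 and 128 CPM in normoxia (log2 change 0.43 ± 0.10, adjusted p = 0.0343), and the desaturase gene Scd2 rose by 0.64 ± 0.16. Both lost their calls without each library but hypoxia replicate 2 (highest adjusted p 0.138 and 0.167). Scd1, the main desaturase, had 3409, 3518 and 2719 CPM in hypoxia and 1469, 1386 and 1648 CPM in normoxia. Its groups did not overlap, but it was not called (log2 change 1.1 ± 0.33, adjusted p = 0.0968). It also makes up most of the summed level of the 21 adipocyte genes, 3664, 3969 and 3011 CPM in hypoxia and 1895, 1851 and 1919 CPM in normoxia, of which none was called. The adipocyte hormone gene Adipoq had 0.369, 7.97 and 0.123 CPM in hypoxia and 5.61, 7.46 and 1.62 CPM in normoxia, and the part of fat tissue in these values was not tested. Lpcat3, which puts polyunsaturated chains into membrane phospholipids, had 97.7, 84.1 and 87.3 CPM in hypoxia, against 50.9, 55.6 and 55.7 CPM in normoxia (log2 change 0.73 ± 0.09, adjusted p = 0.000384), and was stable. Lpin1, a phosphatidate phosphatase, fell by 0.63 ± 0.15 and lost its call without hypoxia replicate 2 or normoxia replicate 0 or 1 (adjusted p of 0.0926 to 0.129).

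Genes of fatty acid oxidation and of the fasting state fell in 5 of 28 cases and rose in none, with a median log2 change of -0.22. Cpt1a, which admits fatty acids to mitochondria, had 122, 102 and 100.1 CPM in hypoxia, against 161, 189.9 and 188 CPM in normoxia (log2 change -0.73 ± 0.13, adjusted p = 0.00702). It was stable, and its groups did not overlap. Pdk4, the kinase that shuts glucose carbon out of the citric acid cycle, had the largest change of the 5, with 26.8, 15.5 and 10.2 CPM in hypoxia, against 108, 113 and 60.9 CPM in normoxia (log2 change -2.42 ± 0.51, adjusted p = 0.0179). It was not called without hypoxia replicate 1 or 2 or normoxia replicate 0 or 1 (adjusted p of 0.0541 to 0.072). Acot2, a mitochondrial thioesterase, fell by 0.74 ± 0.14 (adjusted p = 0.0104, and 0.0596 without normoxia replicate 1), and Angptl4, described with the HIF targets, was a further one. The carnitine transporter gene Slc22a5, outside the list, had 27.8, 24.7 and 17.5 CPM in hypoxia, against 40.2, 41.3 and 39 CPM in normoxia (log2 change -0.78 ± 0.13, adjusted p = 0.00681). The count of 5 was 2 without normoxia replicate 1, 3 without normoxia replicate 0, 4 without hypoxia replicate 1 and 0 when the 6 libraries were fitted alone.

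Glucocorticoid-responsive genes, which overlap with the fasting genes in control, changed in both directions, with 2 of 32 higher and 4 lower. The lower count was 7 without hypoxia replicate 0, 2 without each of the other 5 libraries, 9 with DESeq2 and 0 with the 6 libraries fitted alone, and the higher count was 1 without any one normoxia library. Sgk1, the serum and glucocorticoid-regulated kinase, had 593, 499 and 501 CPM in hypoxia, against 230.2, 195 and 207 CPM in normoxia (log2 change 1.33 ± 0.15, adjusted p = 0.000234), and was stable. The serine protease inhibitor genes Serpina3f and Serpina3g fell. Serpina3g had 4.42, 4.36 and 4.26 CPM in hypoxia, against 15.9, 29.3 and 11.4 CPM in normoxia (log2 change -2.11 ± 0.31, adjusted p = 0.00215), and Serpina3f had 1.34, 2.74 and 0.987 CPM in hypoxia, against 11.9, 23.3 and 4.72 CPM in normoxia (log2 change -2.95 ± 0.54, adjusted p = 0.00869). Both are members of a cluster of similar copies, so fragments may be split between them. Without normoxia replicate 1, the highest, the change of Serpina3f was -2.28. Zbtb16, a transcription factor strongly induced by glucocorticoids, had 72.6, 27.1 and 25.5 CPM in hypoxia, against 203, 296 and 258 CPM in normoxia (log2 change -2.59 ± 0.66, adjusted p = 0.0444). It kept its call without hypoxia replicate 0 alone of the 6 (log2 change -3.26), with adjusted p of 0.0979 to 0.135 without the others. Dusp1, a phosphatase that also responds as an immediate early gene, rose by 1.02 ± 0.22 and was not called without any normoxia replicate (highest adjusted p 0.0924). Fkbp5 and Tsc22d3, standard glucocorticoid targets, had lower means in hypoxia without overlap but were not called (log2 changes -1.43 ± 0.45 and -0.87 ± 0.28, adjusted p = 0.107 and 0.114). None of 19 core clock genes and 11 clock output genes was called, against 2.93% of all genes tested. The output gene Dbp had 3.92, 28.9 and 5.55 CPM in hypoxia and 6.07, 14.9 and 18.7 CPM in normoxia. The hour of collection is not in the labels, and its part in these genes was not tested.

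Of 27 neutrophil genes 7 rose (25.9%) and none fell, with a median log2 change of 1.41, and 25 of the 27 had a positive change. S100a8 and S100a9 encode the calprotectin of neutrophil cytosol. S100a8 had 50.7, 39.9 and 119 CPM in hypoxia, against 5.08, 13.9 and 3.96 CPM in normoxia (log2 change 3.19 ± 0.78, adjusted p = 0.0381), and S100a9 had 72.8, 63.1 and 162 CPM in hypoxia, against 8.25, 20.5 and 7.15 CPM in normoxia (log2 change 3.05 ± 0.76, adjusted p = 0.0418). Hypoxia replicate 2 was the highest of its group for both and normoxia replicate 1 the highest of its own. Retnlg, a resistin-like protein of neutrophils, had 20.2, 10.4 and 33.3 CPM in hypoxia, against 2.31, 3.78 and 1.71 CPM in normoxia (log2 change 3.03 ± 0.70). Ngp, of the granules, had 1.52, 0.915 and 1.11 CPM in hypoxia, against 0.124, 0.184 and 0.045 CPM in normoxia, a few fragments per library in normoxia. Without hypoxia replicate 2 the changes were 2.57 for S100a8 and 3.2 for Stfa2l1. Without normoxia replicate 1 they were 3.95 for S100a8, 3.69 for S100a9, 5.1 for Stfa2l1 and 2.82 for Cxcr1. Stfa2l1, a stefin, Cxcr1, a chemokine receptor, and Chi3l3, a chitinase-like protein that alveolar macrophages also make, were the others, at log2 changes of 3.93 ± 0.88, 2.02 ± 0.52 and 1.55 ± 0.37. Stfa2l1 and Chi3l3 have close copies in the mouse genome, so their fragments may be split.

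The neutrophil calls depended on single libraries. The count of 7 was 0 without normoxia replicate 0 or 2, 2 without normoxia replicate 1, 1 without hypoxia replicate 2, 5 and 6 without hypoxia replicates 0 and 1, 11 with DESeq2 and 0 with the 6 libraries fitted alone. Without normoxia replicate 0 the adjusted p was 0.173 for S100a8, 0.189 for S100a9, 0.139 for Retnlg, 0.0725 for Ngp, 0.132 for Stfa2l1, 0.199 for Cxcr1 and 0.164 for Chi3l3. The median of the list stayed between 1.25 and 1.69 without each library. Its summed level did not overlap, at 833.3, 808 and 1235 CPM in hypoxia and 360.8, 477.9 and 369.9 CPM in normoxia. The granule gene Camp and the cytokine gene Il1b were not called, at log2 changes of 3.21 ± 0.84 and 2.4 ± 0.71. In wild type 5 of the 27 genes were called, all higher, with a median of 1.33. The summed level of the 15 erythroid genes overlapped, at 438.4 to 641.8 CPM in hypoxia and 443 to 497.6 CPM in normoxia, and the part of blood in the lung was not tested.

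Of 26 alveolar macrophage genes 5 rose and none fell, with a median log2 change of 0.57. Chi3l3, which counts in the neutrophil list too, had 391, 329 and 501 CPM in hypoxia, against 108, 174 and 135 CPM in normoxia. Fabp5, a fatty acid-binding protein, had 36.4, 50.7 and 77.9 CPM in hypoxia, against 23.9, 19.3 and 18.9 CPM in normoxia, and Abcg1, which exports cholesterol from these macrophages, had 157, 147 and 142 CPM in hypoxia, against 77.5, 88.2 and 81.2 CPM in normoxia (log2 change 0.85 ± 0.20, adjusted p = 0.0331). Ctsk, a protease, and Clec4n, or dectin-2, were the others. The count of 5 was 0 without any of the normoxia replicates and 1 to 4 without a hypoxia replicate, and Abcg1 lost its call without each of the 6 libraries (adjusted p of 0.0522 to 0.139). Without normoxia replicate 0 the adjusted p was 0.0745 for Fabp5, 0.0503 for Ctsk and 0.159 for Clec4n. Marco, a scavenger receptor of the same cells, was not called (log2 change 0.11 ± 0.50).

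**Figure D3:**
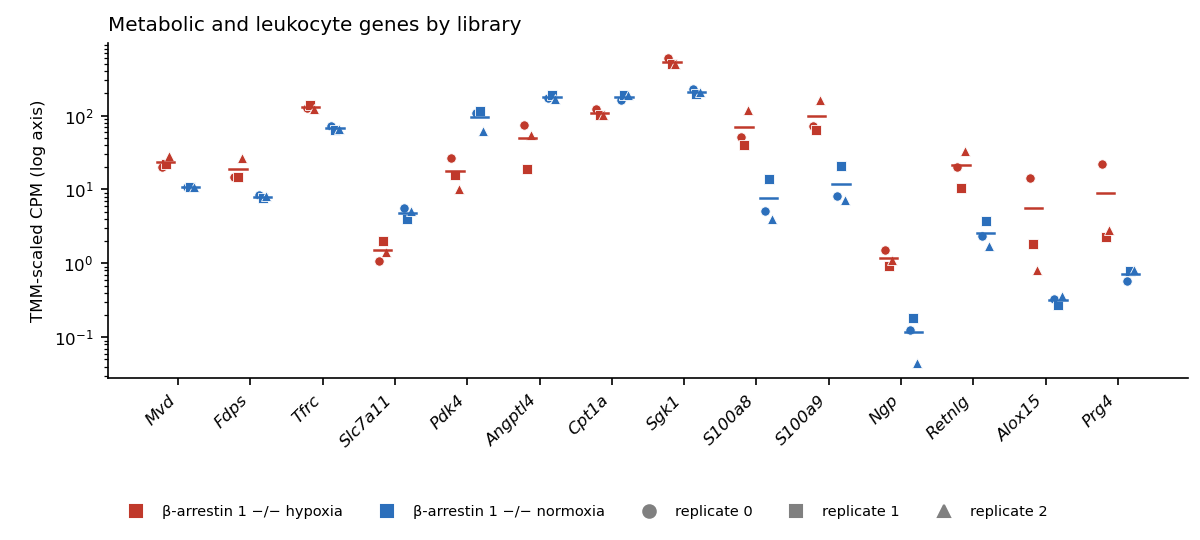
TMM-scaled CPM (log axis) of 14 genes of sterol synthesis, iron uptake, fuel use and leukocytes in each β-arrestin 1 -/- library, with hypoxia in red on the left and normoxia in blue on the right of each gene, 1 symbol shape per replicate number and a bar at the mean of 3 libraries. Mvd, Tfrc, Sgk1 and Cpt1a are tight within groups, while S100a8, S100a9, Alox15 and Prg4 spread widely, the last 2 because of hypoxia replicate 0.

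Alox15, a lipoxygenase of pleural macrophages and eosinophils, and Prg4, the lubricin of serous surfaces, had large changes that rested on 1 library. Alox15 had 14.1, 1.83 and 0.802 CPM in hypoxia, against 0.33, 0.276 and 0.36 CPM in normoxia, and Prg4 had 22.1, 2.27 and 2.84 CPM in hypoxia, against 0.578, 0.783 and 0.81 CPM in normoxia. Hypoxia replicate 0 was the highest of each by a wide margin. Their log2 changes of 4.1 ± 0.98 and 3.65 ± 0.83 became 2.05 and 1.81 without it, no longer called (adjusted p = 0.136 and 0.106), and neither was called without any 1 of the normoxia replicates. Slpi, a protease inhibitor of secretory and mesothelial cells, had 87, 54.5 and 162 CPM in hypoxia, against 13.3, 24 and 18.1 CPM in normoxia (log2 change 2.45 ± 0.60), and was not called without hypoxia replicate 2 or any normoxia replicate (adjusted p of 0.101 to 0.174). Summed levels of the 17 pleural macrophage genes and of the 16 mesothelial genes overlapped between groups, and the mesothelial gene Msln had 203, 141 and 169 CPM in hypoxia and 87.6, 153 and 159.6 CPM in normoxia. The part of pleural tissue in these values was not tested.

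Other inflammatory genes changed in few cases. Ptx3, a pentraxin released by vessels and myeloid cells, had 4.33, 4.36 and 3.89 CPM in hypoxia, against 1.07, 0.691 and 0.765 CPM in normoxia (log2 change 2.3 ± 0.40, adjusted p = 0.00749), and was stable. Osm, the cytokine oncostatin M, rose by 2.31 ± 0.49 and was not called without any normoxia replicate (adjusted p of 0.051 to 0.098). Cd40, the receptor through which T cells activate other cells, had 35.1, 44.7 and 59.1 CPM in hypoxia, against 20.4, 22.2 and 19.3 CPM in normoxia (log2 change 1.16 ± 0.15, adjusted p = 0.000621), and was stable. The immediate early gene Fos had 202, 144 and 193 CPM in hypoxia, against 46.1, 29.2 and 16.9 CPM in normoxia (log2 change 2.55 ± 0.56, adjusted p = 0.0237), but was not called without any normoxia replicate (adjusted p of 0.051 to 0.107). None of 39 T and natural killer cell genes and none of 28 B and plasma cell genes was called, against 2.93% of all genes tested. Their medians were 0.34 (0.17 to 0.49 without single libraries) and 0.70.

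Genes of contractile smooth muscle, which thickens in hypoxic pulmonary arteries, were not called in any of 20 cases, nor were any of 18 fibroblast genes or any of 40 cell cycle genes. None of 22 type 1 cell genes, 28 club cell genes, 21 ciliated cell genes and 16 platelet genes was called either. With 2.93% of all genes tested called, few or no calls fall in lists of these sizes, so these counts say little. Acta2, smooth muscle actin, had 311, 360.0 and 262 CPM in hypoxia and 429.9, 361 and 368 CPM in normoxia (log2 change -0.31 ± 0.24), and Myh11, smooth muscle myosin, had 236, 286 and 167 CPM in hypoxia and 217, 213 and 210.4 CPM in normoxia (0.10 ± 0.25). Mki67, a marker of dividing cells, was at a log2 change of 0.28 ± 0.31. Among 31 collagen and elastic fibre genes 2 rose and 1 fell, with Col1a1 at -0.01 ± 0.25 and the elastin gene Eln at 0.65 ± 0.24 (adjusted p = 0.175), neither called. The summed level of the list was 12070 to 15180 CPM in hypoxia and 9534 to 10820 CPM in normoxia. Abundant genes weigh most in that sum, and the median log2 change of the list was -0.00048, with 15 of the 31 genes positive. Cyr61, a matricellular protein, had 398, 423 and 739 CPM in hypoxia, against 126, 146 and 117 CPM in normoxia (log2 change 2.0 ± 0.44), and was not called without hypoxia replicate 2 or any normoxia replicate (adjusted p of 0.0685 to 0.102). Sparc rose by 0.61 ± 0.15 and Col5a1 fell by 0.71 ± 0.18, each lost without 5 of the 6 libraries (highest adjusted p 0.202 and 0.172, called without hypoxia replicate 0 for Sparc and hypoxia replicate 1 for Col5a1). Pericyte genes rose in 2 of 17 cases. Higd1b of lung pericytes had 25.5, 26.6 and 63.3 CPM in hypoxia, against 16.3, 17 and 17.3 CPM in normoxia, and its log2 change of 1.18 ± 0.26 was 0.63 without hypoxia replicate 2 and not called without any normoxia replicate (adjusted p of 0.0817 to 0.109). Lamc3, a laminin chain, rose by 0.82 ± 0.20 and kept its call without hypoxia replicate 2 alone (highest adjusted p 0.129).

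**Figure D4:**
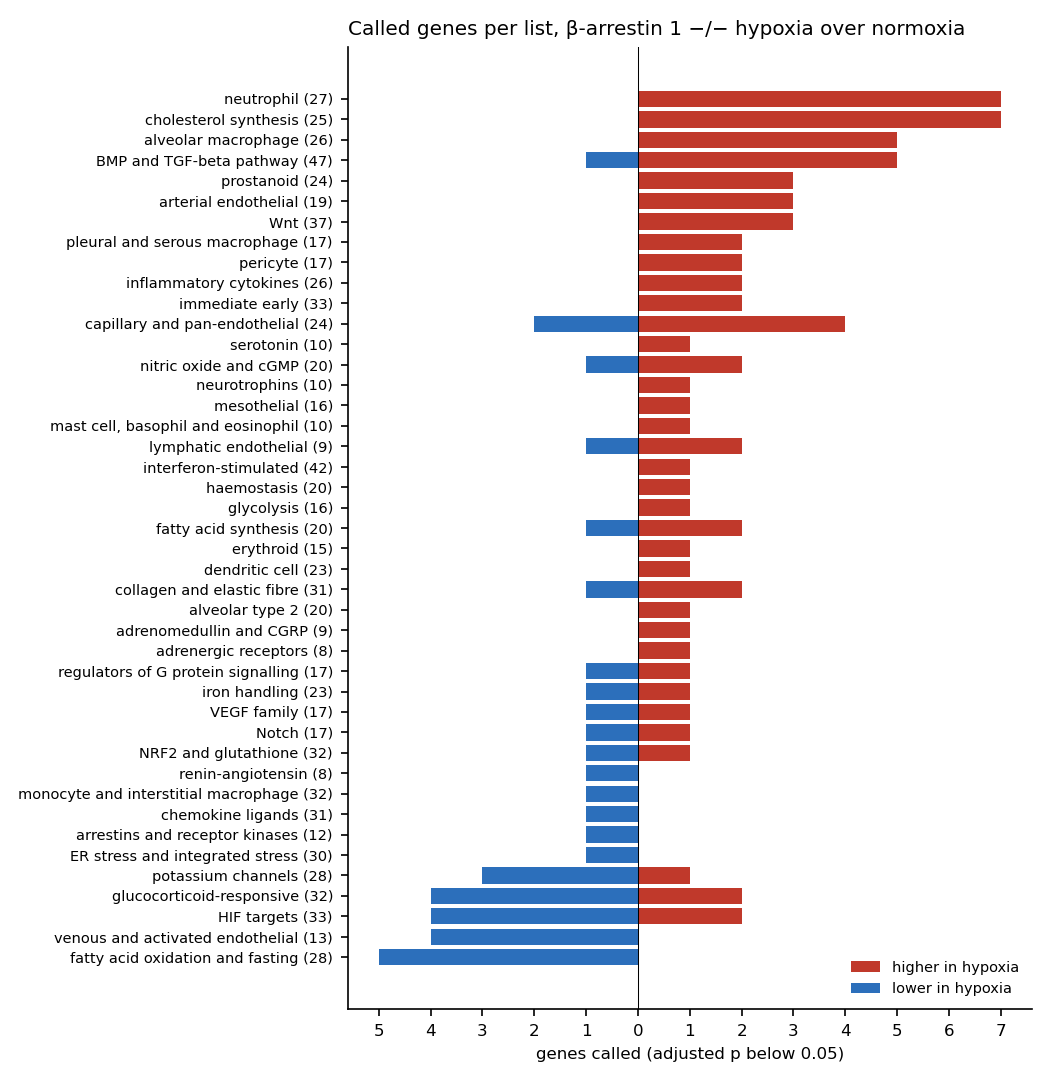
Number of genes called higher in hypoxia (red, to the right) and lower in hypoxia (blue, to the left) in β-arrestin 1 -/- lung for each list with at least 1 called gene, with the number of genes tested in brackets. Neutrophil and cholesterol synthesis lists had 7 higher genes each, and fatty acid oxidation and fasting had 5 lower.

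Over the 59 lists, 99 of 1193 genes were called, 66 of them higher, and 16 lists had none called. The lists were drawn up for this tissue and exposure, so their share above the 2.93% of all genes says nothing of any 1 list. A list with no called gene likewise says little, as few or no calls fall in most lists at the share of all genes. Several of the largest stable changes were of genes with no tie to these pathways or of single list members. Slc26a10 (chromosome 10 from 127172426 to 127180645), a gene of the anion transporter family, had 22.5, 23.7 and 19.3 CPM in hypoxia, against 1.82, 2.03 and 2.02 CPM in normoxia, an 11.1-fold higher mean (log2 change 3.48 ± 0.25, adjusted p = 1.75e-06). Ntrk2 (chromosome 13 from 58806596 to 59129967), the TrkB receptor of brain-derived neurotrophic factor and the 1 called of 10 neurotrophin genes, had 596, 282 and 165 CPM in hypoxia, against 31.9, 27.7 and 32.7 CPM in normoxia. Its log2 change was 3.5 ± 0.56 (adjusted p = 0.00408), and 2.86 without hypoxia replicate 0, the highest library. Cdk19, a kinase of the Mediator complex, had 879, 459 and 278 CPM in hypoxia, against 125, 101 and 107 CPM in normoxia (log2 change 2.28 ± 0.42, adjusted p = 0.00869). Ntrk2 and Cdk19 share the order of their hypoxia libraries, with replicate 0 the highest and replicate 2 the lowest.

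Fam181b, a gene of little known role, had 30.04, 24.5 and 31.2 CPM in hypoxia, against 6.81, 5.53 and 8.19 CPM in normoxia (log2 change 2.06 ± 0.18, adjusted p = 2.02e-05). Abcb1a, the P-glycoprotein drug efflux pump of capillaries, had 153, 121 and 90.7 CPM in hypoxia, against 50.8, 48.4 and 59.4 CPM in normoxia (log2 change 1.2 ± 0.20). Stab2, a scavenger receptor of sinusoidal endothelium, was low but higher in hypoxia, at 2.67, 3.01 and 2.96 CPM, against 1.44, 1.24 and 0.675 CPM in normoxia (log2 change 1.35 ± 0.24). Car14, a membrane-bound carbonic anhydrase, had 51.7, 58.9 and 56.4 CPM in hypoxia, against 28.4, 24 and 31.1 CPM in normoxia (log2 change 1.0 ± 0.15, adjusted p = 0.00282). Msx1, a homeobox factor downstream of BMP, rose by 1.56 ± 0.18, with 25.3, 21.3 and 22.1 CPM in hypoxia, against 9.2, 6.22 and 7.83 CPM in normoxia. These 5 genes were chosen after their values were seen, and all were stable.

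Among the lower genes, Ankrd63 (chromosome 2 from 118699103 to 118703963), an ankyrin repeat gene, had 2.17, 2.92 and 4.5 CPM in hypoxia, against 19.9, 28.3 and 29.7 CPM in normoxia, at 12.3% of normoxia (log2 change -3.04 ± 0.37, adjusted p = 0.000487). Cd300lg, or nepmucin, an adhesion protein of capillary endothelium, had 8.8, 10.5 and 7.52 CPM in hypoxia, against 24.4, 30.7 and 29.1 CPM in normoxia (log2 change -1.65 ± 0.21, adjusted p = 0.000883). Slc7a11, the cystine transporter that feeds glutathione synthesis, had 1.06, 2.0 and 1.42 CPM in hypoxia, against 5.53, 3.92 and 5.08 CPM in normoxia (log2 change -1.69 ± 0.22, adjusted p = 0.00102), while Gpx3, the secreted glutathione peroxidase, rose by 1.02 ± 0.20 (adjusted p = 0.011, and 0.069 without normoxia replicate 0). Esr2, the oestrogen receptor β, was at 1.2, 1.13 and 1.17 CPM in hypoxia, against 2.89, 2.9 and 2.83 CPM in normoxia (log2 change -1.3 ± 0.23, adjusted p = 0.00749). Lepr, the leptin receptor, had 82.7, 82.4 and 65.9 CPM in hypoxia, against 118, 130.0 and 121 CPM in normoxia (log2 change -0.68 ± 0.11, adjusted p = 0.00551). Olfm2 fell by 2.05 ± 0.31, Mpp3, a membrane scaffold, by 2.24 ± 0.29 and Dpysl5, a collapsin response mediator, by 1.69 ± 0.24. Apart from Gpx3 these genes were stable, and none overlapped between groups.

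The response of β-arrestin 1 -/- lung was then set beside that of wild type, which asks whether loss of β-arrestin 1 altered the response to hypoxia. No gene of 15384 passed the test of the difference between the 2 responses (0.00%, 0 with edgeR, 905 at an unadjusted p below 0.05, smallest adjusted p 0.37), against 9 with DESeq2, 1 with the compared groups fitted alone and 2 with limma without an FPKM minimum. The hypoxia responses of the knockout and of wild type share no libraries, but both come from the same fit with a common estimate of the spread. Of the 451 genes called in the knockout, 442 had the same sign in wild type, and 218 were called there too, 48.3% of the knockout calls and 30.7% of the 709 wild type calls (4.61% of genes, 2.71% higher and 1.90% lower). Their median change in the knockout direction was 0.79 in β-arrestin 1 -/- and 0.55 in wild type. The genes were chosen by their change in the knockout, so the medians are no comparison of strength.

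Intervals of the difference were narrow for some stable genes with small standard errors in the knockout, among them the channel gene Kcnk2. Gja4, Hey2, Cd300lg, Slc6a2 and Npr3, with standard errors of 0.21 to 0.43 there, are given no interval. The genes with intervals are a selection, and other stable genes with small standard errors had responses further apart. Log2 changes in the knockout and in wild type were 0.73 and 0.43 for Lpcat3 and 1.33 and 0.82 for Sgk1. They were 1.14 and 0.52 for Adrb3, 1.11 and 0.65 for Rgs2, 1.38 and 1.84 for Shisa2 and -0.64 and -0.95 for Ivns1abp. None of these differences passed the adjusted test (adjusted p = 0.814 for each). The difference, knockout minus wild type, was -0.01 (95% interval -0.33 to 0.31) for Sox17, -0.08 (95% interval -0.42 to 0.26) for Cd34, -0.16 (95% interval -0.53 to 0.21) for Vcam1, 0.06 (95% interval -0.31 to 0.43) for Prss23 and 0.04 (95% interval -0.20 to 0.28) for Kcnk2 on the log2 scale. For Lyve1 it was -0.17 (95% interval -0.63 to 0.29) and for Plvap 0.41 (95% interval -0.23 to 1.05). The intervals of Slc26a10, -1.0 (95% interval -1.69 to -0.31), and of Esm1, 1.13 (95% interval 0.45 to 1.8), did not hold 0, and neither passed the adjusted test (adjusted p = 0.814 and 0.814). Slc26a10 had 15.5, 22 and 28.5 CPM in wild type hypoxia and 1.3, 0.578 and 1.06 CPM in wild type normoxia.

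Sele had one of the 5 smallest p of the difference. In wild type it had 1.31, 0.761 and 0.688 CPM in hypoxia and 1.02, 0.578 and 0.975 CPM in normoxia, and in the libraries labelled β-arrestin 2 -/- 0.568, 0.314 and 0.917 CPM in hypoxia and 0.719, 1.13 and 0.68 CPM in normoxia, so the 3 β-arrestin 1 -/- normoxia libraries, at 4.95, 3.55 and 4.63 CPM, were above all other 15. The difference of responses was -3.08 (95% interval -4.17 to -1.99), with an adjusted p of 0.37 in edgeR, 0.00151 in DESeq2 and 0.0105 in limma without an FPKM minimum. Hpgd, which inactivates prostaglandins, had 679, 574 and 724 CPM in β-arrestin 1 -/- hypoxia and 634, 792 and 632 CPM in β-arrestin 1 -/- normoxia, against 541, 457 and 299 CPM in wild type hypoxia and 1262, 1122 and 1056 CPM in wild type normoxia. It fell in wild type (log2 change -1.41 ± 0.18, adjusted p = 0.000609), and its change in the knockout was -0.06 ± 0.18. The difference of 1.35 (95% interval 0.84 to 1.85) had an adjusted p of 0.411 in edgeR and 0.00151 in DESeq2. Slc45a4, a transporter gene, had a difference of 0.73 (95% interval 0.44 to 1.03), and Fer1l4, a pseudogene in humans, one of -2.82 (95% interval -3.91 to -1.74), each with an adjusted p of 0.411 in edgeR.

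Marker lists of other cell types moved in ways that touch these comparisons. The 33 cardiac genes had a median response of -0.39 in the knockout and 2.44 in wild type, and club cell genes -0.08 in the knockout and 0.62 in wild type. The knockout medians turned on single libraries: the cardiac one was -2.01 without hypoxia replicate 1 and 0.03 without normoxia replicate 0, and the club cell one was -0.23 without hypoxia replicate 2 and 0.23 without normoxia replicate 0. No cardiac gene was called in either genotype. With a covariate of cardiac, airway and adipocyte genes in the fit, the difference between the genotypes still had 0 calls by edgeR. Genes at an unadjusted p under 0.05 numbered 258, against 905 without the covariate. The covariate was -1.3, -2.27 and -1.03 in wild type normoxia and 0.41, 0.365 and 0.813 in wild type hypoxia, without overlap. It can thus take up part of the wild type response to hypoxia, so the fall to 258 cannot be read as a share of other tissue. B and plasma cell genes had medians of 0.70 in the knockout and 1.5 in wild type, with none and 8 of 28 called, and the difference was called for none of them.

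Against the libraries labelled β-arrestin 2 -/-, 389 genes differed in response (2.53%), 156 with a higher (1.01%) and 233 with a lower (1.51%) response in β-arrestin 1 -/- lung. Of the 451 knockout calls, 370 had the same sign in these libraries, and 205 were called there, 45.5% of the knockout calls and 6.03% of the 3401 calls (22.1% of genes) in those libraries. The difference was called for 63 of the 451. The count of 389 rested on single libraries, with 2115 and 695 without β-arrestin 1 -/- hypoxia replicates 0 and 1, and 124, 20 and 67 without β-arrestin 1 -/- normoxia replicates 0, 1 and 2. It was 70 to 156 without each library labelled β-arrestin 2 -/- except normoxia replicate 2, without which it was 308. Lyve1 changed less in these libraries, with 209.8, 253 and 248 CPM in hypoxia and 314, 423 and 493 CPM in normoxia, and the difference of responses was -2.17 ± 0.24 (SE, adjusted p = 0.00121). Slc6a2 had 153, 198 and 149.8 CPM in hypoxia and 117, 103 and 100.2 CPM in normoxia there (log2 change 0.64 ± 0.28, adjusted p = 0.104), a difference of -2.26 ± 0.40 (adjusted p = 0.0147). Plvap, Ntrk2 and Slc26a10 did not pass this test, at differences of 0.50 ± 0.33, -0.57 ± 0.73 and 0.23 ± 0.34.

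**Figure D5:**
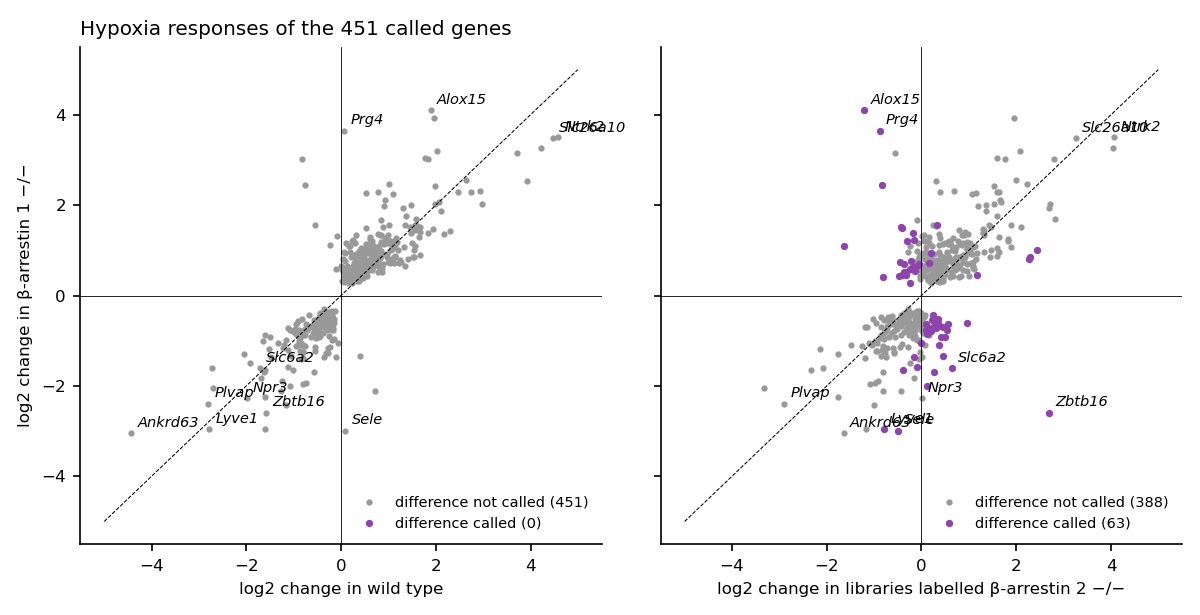
Log2 change with hypoxia in β-arrestin 1 -/- lung (vertical axis) for the 451 genes called there, against that in wild type (left) and in the libraries labelled β-arrestin 2 -/- (right, horizontal axes), with the dashed line marking equal responses and genes whose difference was called in purple. On the left 442 genes share the sign and no difference was called, and on the right 370 share the sign and 63 differences were called.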

How the data were processed

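Poly(A) RNA of whole mouse lung was sequenced in 18 libraries of 6 groups with 3 each, from non-stranded kits, so reads of overlapping antisense genes cannot be told apart. FastQC, TopHat, Cuffdiff and mm10 are named in the submitters' processing notes, with no version given in the sources used here. For each gene and library the authors deposited an estimated count (raw fragments) and an FPKM value, of which 93.3% of the counts were whole within a tolerance of 1e-06. They also deposited a table of comparisons with a p-value, a q-value and a test score for each gene. The FPKM values were normalized by the authors, per the file headers, and depth per library follows from the deposited counts.

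Counts were rounded to whole numbers. Of 23356 features, 4 with a shared name and 5 that the authors' program marked as too deep (HIDATA: Cmss1, Filip1l, Rn45s, Scgb1a1 and Sftpc) were left out. The remaining 23347 were filtered by expression over the 6 groups, scaled by TMM and fitted over all 18 libraries with edgeR's quasi-likelihood test (edgeR 4.0.16, limma 3.58.1, DESeq2 1.42.0, R 4.3.3, matplotlib 3.10.9), with Benjamini-Hochberg adjustment over all 15384 genes and a threshold of 0.05. FPKM served for levels per length and for limma on log2(FPKM + 1), where folds of low genes are understated. Intervals are 95% intervals from the standard error. On simulated data for the β-arrestin 1 -/- hypoxia comparison, over 15384 genes, edgeR found 31.3% of the 67 that were given a 1.5-fold change, 80.6% of the 67 given 2-fold and 92.4% of the 66 given 4-fold, and 7.48% of its calls were false. Simulated counts were drawn for each gene on its own, with all groups alike apart from the changed genes. They lack variation that genes share within a library, so these shares need not hold for the measured libraries.

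The named genes were, by rule, Arrb1 and Arrb2, the 12 highest and 12 lowest changes among called genes without overlap between groups and with log2 CPM averaging 1 or more, up to 5 called members of each list by smallest p, the defining cell markers, and the 5 smallest p of each difference of responses. Other genes were chosen after their values were seen, from the 101 stable genes or as well known members of a pathway. Some genes that the rule names are not reported here. The comparison, the 59 lists and the rule were chosen with earlier results of these data known. Promoter windows are RefSeq's (GRCm38.p6). To check coordinates, 21522 gene symbols of the authors' table were matched to RefSeq genes, and 49% of their starts were equal after adding 1.

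Alternatives were DESeq2, its size factors, no filter, the compared groups alone, a replicate block, limma with pseudocounts of 1 and 0.1 and without an FPKM minimum of 1 in 3 libraries, haemoglobin genes left out, a covariate from cardiac, airway and adipocyte genes, and each library left out in turn. In that last fit an arm keeps 2 libraries.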

Additional observations from a re-analysis of the deposited data

Results flagged for a closer look

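The response to hypoxia of β-arrestin 1 -/- lung differed from that of the libraries labelled β-arrestin 2 -/- for 389 genes by a test of the difference itself (edgeR). The differences below are log2 changes in β-arrestin 1 -/- minus those in the libraries labelled β-arrestin 2 -/-, and no explanation of them was tested.

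Among genes of vessels described above, the difference was -2.17 ± 0.24 for Lyve1 (adjusted p = 0.00121), -2.26 ± 0.40 for the noradrenaline transporter gene Slc6a2 and -2.49 ± 0.57 for E-selectin, Sele. It was -1.43 ± 0.28 for Reln and -1.43 ± 0.28 for Mmrn1, both of lymphatic vessels, and -1.45 ± 0.28 for Lamc3 of pericytes, all 3 with the greater rise in the libraries labelled β-arrestin 2 -/-. It was 1.51 ± 0.36 for the apelin receptor gene Aplnr, -0.88 ± 0.21 for the Notch ligand gene Dll1, 1.38 ± 0.29 for Wnt7a and 1.95 ± 0.49 for Nos2.

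The difference between the responses was -0.95 ± 0.18 for Cpt1a (adjusted p = 0.0191), -1.32 ± 0.26 for Pfkfb3, -1.18 ± 0.21 for Lpin1 and -5.28 ± 0.93 for Zbtb16. It compares changes with hypoxia, not levels. Zbtb16 had 72.6, 27.1 and 25.5 CPM in β-arrestin 1 -/- hypoxia and 203, 296 and 258 CPM in β-arrestin 1 -/- normoxia, and 221, 172 and 185 CPM in hypoxia and 29.2, 18.7 and 41.7 CPM in normoxia in the libraries labelled β-arrestin 2 -/-. Its order between hypoxia and normoxia was thus opposite in the compared pairs of groups.

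The difference between the responses was 5.3 ± 1.26 for Alox15, 4.53 ± 1.09 for Prg4 and 3.28 ± 0.82 for Slpi. Hypoxia replicate 0 was the highest β-arrestin 1 -/- library of Alox15 and Prg4. The remaining differences were 1.22 ± 0.14 for the glycogenin gene Gyg, 4.21 ± 0.50 for the matrix protein gene Spon2, 2.24 ± 0.27 for S100a14, 2.71 ± 0.37 for Vstm5 and -1.96 ± 0.33 for Dpysl5. Spon2 had 45.1, 46.3 and 61.5 CPM in β-arrestin 1 -/- hypoxia and 73.6, 61.4 and 87 CPM in β-arrestin 1 -/- normoxia, and 1.88, 4.19 and 4.63 CPM in hypoxia and 93.7, 95.6 and 100.1 CPM in normoxia in the libraries labelled β-arrestin 2 -/-.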

How the results depend on the processing

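The 451 calls of the β-arrestin 1 -/- response became 841 with DESeq2 and 47 with the 6 libraries fitted alone. They ranged between 134 and 491 without each library, and 391 to 458 with the other size factors, no filter, haemoglobin genes left out or the tissue covariate, and 367 to 409 with limma. The difference from wild type had 0 calls, against 9 with DESeq2, 1 with the 12 libraries fitted alone, 2 with limma without an FPKM minimum, and 0 calls without each library in turn. The 389 calls of the difference from the libraries labelled β-arrestin 2 -/- became 1630 with DESeq2 and 244 with the 12 libraries fitted alone, and ranged between 20 and 2115 without each library. No named gene changed the sign of its β-arrestin 1 -/- response between the main fit and another where either of them called it. Sign changes of genes called in neither fit were not counted. Of 103 named genes called, 38 kept their call without each library in turn. The cause of these changes was not tested, and some of the fits also hold fewer libraries. On simulated data 17.2% of the calls of DESeq2 and 7.48% of those of edgeR were false. Those data held no variation shared by genes within a library, so neither share carries over to the 451 calls or ranks the tools here.

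The labels name no pairs of libraries. Deviations of same-numbered hypoxia and normoxia libraries had correlations of -0.213, -0.0814 and -0.0609. Differently numbered libraries had 0.371 (hypoxia 0 with normoxia 2), 0.33 (hypoxia 1 with normoxia 0) and 0.184 (hypoxia 2 with normoxia 1), and the rest were negative. These correlations cannot settle whether libraries were paired. With the replicate number as a block the β-arrestin 1 -/- response had 133 calls, the difference from wild type 0 and that from the libraries labelled β-arrestin 2 -/- 4. Of the 101 stable genes 75 were called and 26 not, among them Abcb1a, Bmpr1b, Cd34, Cpt1a, Cybrd1, Gdf6 and Stab2 (adjusted p 0.0509 to 0.0645).

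At this depth, genes under about 1 CPM, such as Ngp and Sele, rest on few fragments in at least 1 group.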

Other observations

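Some genes that the accounts above do not cover were called in β-arrestin 1 -/- lung. Of 16 glycolysis genes 1 was called. Aldoc, an aldolase, had 6.96, 7.36 and 7.4 CPM in hypoxia, against 4.79, 3.5 and 4.32 CPM in normoxia (log2 change 0.78 ± 0.17, adjusted p = 0.0227; 0.116 and 0.072 without normoxia replicate 1 or 2). Of 24 prostanoid genes, Alox5ap, the partner of 5-lipoxygenase in leukotriene synthesis, rose by 0.74 ± 0.17 beside Ptgir and Alox15. Adam23, a cell adhesion protein, had 105, 68.6 and 35.4 CPM in hypoxia, against 10.5, 13.9 and 14.8 CPM in normoxia (log2 change 2.42 ± 0.46, adjusted p = 0.0104; 0.0655 without normoxia replicate 0). Acer2, a Golgi ceramidase, had 149, 314 and 254 CPM in hypoxia, against 689.9, 567 and 642 CPM in normoxia (log2 change -1.41 ± 0.27, adjusted p = 0.0103; 0.051 without normoxia replicate 0). Adamts9, a metalloprotease of vessels, had 27.3, 26.7 and 18.3 CPM in hypoxia, against 61.4, 49.9 and 62.7 CPM in normoxia (log2 change -1.26 ± 0.22, adjusted p = 0.00749), and kept its call without each library. Of 42 interferon-stimulated genes 1 was called, Ifit3, which rose by 0.86 ± 0.20 (adjusted p = 0.0324, and up to 0.167 without single libraries).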
